A study of Homo sapiens with 6 samples.

Results

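The replication-dependent histone genes of K562 cells were described under a miR-92a-1-5p mimic and a negative-control mimic. They were taken as the rows of the count table whose symbol starts with HIST1H, HIST2H, HIST3H or HIST4H and whose estimated counts sum to at least 10 over the libraries, which 61 of 89 such rows did, out of 35615 rows in all. Just inside that limit lay HIST2H2BA with a summed count of 10 and HIST1H2APS3 with 15, and just outside it HIST1H4G with 9 and HIST1H1A with 8. Of the 28 rows left out, 14 were at 0 in all 6 libraries, and the HIST4 cluster gave no member. K562 is an established human line from a chronic myeloid leukemia that carries the BCR-ABL1 kinase, and imatinib inhibits that kinase. Each culture received 500 pmol of the hsa-miR-92a-1-5p mimic (miR92a 1 to 3) or of Negative Control #1 (scramble 1 to 3) by nucleofection, 1 µM imatinib was added to both groups 4 h later, and RNA was taken 24 h after that. Each group held 3 cultures named as biological replicates, and no group was without imatinib, so the values describe the mimic in drug-treated cells of 1 line.

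Replication-dependent histones package newly made DNA. Their genes sit in clusters, and most of their mRNAs end in a conserved stem-loop in place of a poly(A) tail. Stem-loop binding protein holds this hairpin, the U7 small nuclear ribonucleoprotein guides the cut just behind it, and the mRNA is degraded quickly when DNA synthesis stops. Several of these genes also give a longer, polyadenylated transcript, which poly(A)-based methods detect. Whether poly(A) or ribosomal RNA selection was used here is not given in the sources used here, so a level is a level of the transcripts that the library kept and that the authors' annotation held.

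The mimic is shown first, since it is the agent compared, with its seed (bases 2 to 8) in capitals. It is the 5p arm of the miR-92a-1 hairpin, encoded at chr13:91351324-91351346 on the plus strand of GRCh38.p14 (RefSeq).
hsa-miR-92a-1-5p: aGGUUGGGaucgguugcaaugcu
A match to bases 2 to 8 in a transcript reads CCCAACC, and a match to bases 2 to 7 followed by an A reads CCAACCA. A search of all annotated transcripts of each gene, on the sense strand, found either in 3 of the 48 members tested (6.25%), namely HIST1H1T, HIST1H3E and HIST3H2BB. The same search found one in 44.4% of the 13656 tested genes with an annotated transcript, whose transcripts differ in length from those of the histone genes.

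Next are the stem-loops of 5 members, chosen to show each hairpin type found. A 16-base hairpin with arms of 6 bases around a loop of 4, of the form GGNNCTTNNNAGNNCC, was sought in the annotated transcripts. It was present in 28 of 54 coding members (51.9%) and in 54 of 19669 coding genes of the GENCODE v29 annotation (0.275%). Each line gives the hairpin in capitals with 5 bases on either side, GRCh38.
HIST1H2BG: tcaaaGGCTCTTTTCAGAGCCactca
HIST1H2BD: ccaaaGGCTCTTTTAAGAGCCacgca
HIST1H3E: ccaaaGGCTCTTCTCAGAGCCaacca
HIST1H4H: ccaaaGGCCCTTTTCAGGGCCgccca
HIST1H4I: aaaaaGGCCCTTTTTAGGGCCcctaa
These lie at chr6:26216213-26216238 (minus strand), chr6:26158582-26158607, chr6:26225591-26225616, chr6:26285126-26285151 (minus strand) and chr6:27139649-27139674, respectively. The first form was the most common, with 17 members from the H2A, H2B and H3 classes. The form of HIST1H2BD occurred in 3 H2B members, that of HIST1H3E in 1, that of HIST1H4H in 4 H4 members and that of HIST1H4I in 3 H4 members.

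The deposited totals were 24751862 to 25982085 counts in 5 libraries and 704448 in miR92a 1. The members held 0.0939% to 0.166% of the counts. In miR92a 1, 19 members were at 0 and 29 of the 48 members tested had under 10 counts, against 0 to 6 tested members in the other libraries, and 3 counts there are worth 4.08 CPM (counts scaled to a common library size) against 0.115 to 0.125 elsewhere. The label calls the cells myeloblasts. Among the granulocytic markers MPO and CTSG were at 0 in all libraries and CD33 lay between 14.0 and 20.7 CPM, while the erythroid genes HBG2 and HBZ lay between 1558 and 4895 CPM.

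Levels are given as CPM after TMM scaling, which adjusts for library composition. Counts were tested with edgeR's quasi-likelihood test over 14543 genes, adjusted by Benjamini-Hochberg, at a threshold of 0.05. Because deviations of same-numbered libraries were correlated, a second fit took the replicate number as a block, and its value stands beside a result where it changes the call. Of the 48 members tested, HIST1H2AG alone was higher with the mimic past the threshold without the block, and 8 were with it: HIST1H2BJ, HIST1H2AG, HIST1H4I, HIST1H2BK, HIST2H4B, HIST2H4A, HIST1H2BG and HIST1H2BD. No member was lower past the threshold in either fit. The remaining 13 members were too low to test, with summed counts of 10 to 59.

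These counts were read against those of all genes tested. Without the block 2.08% of the tested members were called higher, against 0.433% of all genes, and none lower, against 0.976%. With the block 16.7% of the members were called higher, against 4.57% of all genes, and none lower, against 6.7%. At an unadjusted p under 0.05 without the block, 8 members were higher (16.7%, against 6.0%) and 0 lower (against 7.51%). The 3 mimic libraries lay above all 3 scramble libraries for 7 members (14.6%, against 9.73% of all genes), and below them for 0 (against 11.5%).

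The members tested lay slightly to the positive side. The median log2 fold change of the members tested was 0.39, with 40 of 48 (83.3%) above 0, beside a median of -0.01 and 48.3% above 0 over all genes. With the block it was 0.30, with 38 above 0, beside -0.01. With HIST2 copies of equal coding sequence summed, 45 members were tested and the median was 0.33 (0.29 with the block). Pseudogenes of the annotation made up 7 of the 61 members and 3 of the 48 tested. Among the 20 members with a mean of at least 10 CPM the median was 0.36 with 17 above 0, beside 0.00 over the 9384 genes of that level. Among the 28 below 10 CPM it was 0.40 with 23 above 0, and none of these was called with the block. Those 28 had at most 8 counts in miR92a 1. The filter let 1 member through by its mimic libraries alone, HIST2H2BD, which was at 0 in 2 scramble libraries, so these medians describe the members tested and are no test of the set.

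**Figure D1:**
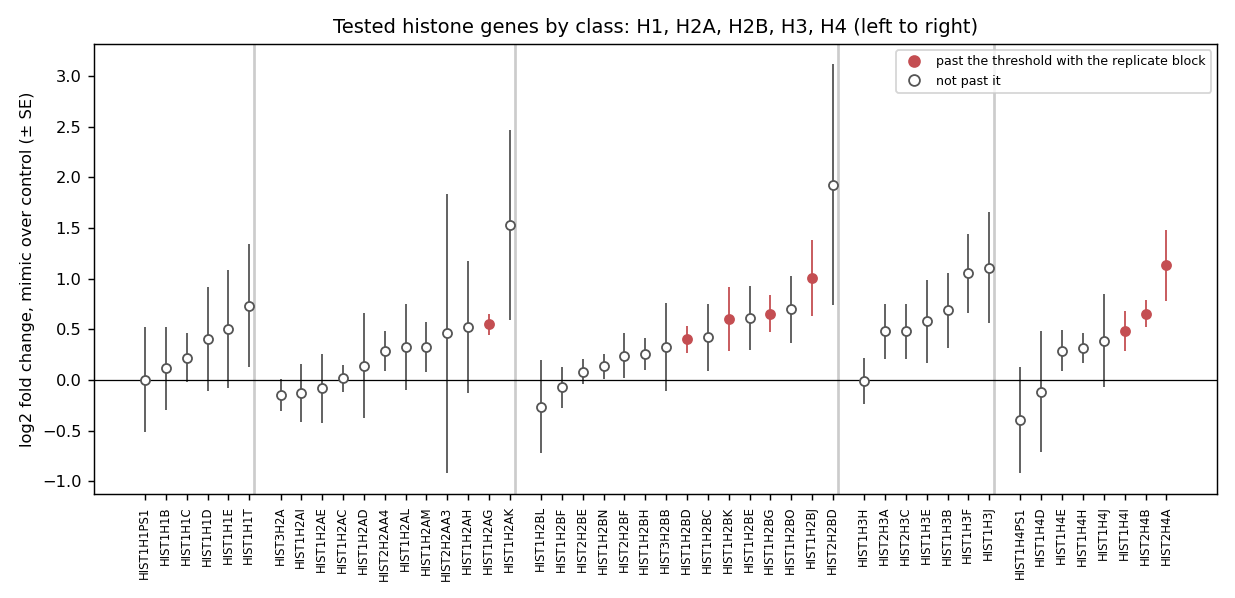
Log2 fold change (mimic over negative control, without the replicate block) of the 48 tested histone genes, ordered within each class, with bars of 1 standard error. Filled points passed the threshold with the replicate block, and most points lie above 0 with bars that are widest for genes of low count.

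Summed over all 61 members, the level was 936, 975 and 1339 CPM in scramble 1, 2 and 3 and 1170, 1150 and 1709 CPM in miR92a 1, 2 and 3. The number 3 library was the highest of each group, and scramble 3 lay above miR92a 1 and 2, so the groups overlapped. The means were 1083 ± 222 and 1343 ± 317 CPM (SD, n = 3 each), a log2 ratio of 0.31, and the ranges of mean ± SD overlapped. Within equal numbers the log2 ratios were 0.32, 0.24 and 0.35. Left out in turn, single libraries moved the log2 ratio between 0.10 (without miR92a 3) and 0.49 (without scramble 3).

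Erythroid genes also set the number 3 libraries apart. HBZ, an embryonic globin, was at 2232, 2511 and 4895 CPM in scramble 1 to 3 and at 1558, 1706 and 4419 CPM in miR92a 1 to 3. Its part in the histone values was not tested.

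The plot of summed levels by class shows the classes apart. Of the 5 classes, the core histones H2B and H4 had the largest log2 ratios of group means, at 0.44 and 0.48. Summed H4 was 123, 130 and 165 CPM in scramble and 174, 171 and 238 CPM with the mimic, with no overlap between groups and log2 ratios of 0.50, 0.39 and 0.52 within equal numbers. Summed H2B was 330, 353 and 449 CPM in scramble and 410, 418 and 709 CPM with the mimic, and scramble 3 lay above miR92a 1 and 2. Its log2 ratios within equal numbers were 0.31, 0.25 and 0.66. Without miR92a 3 the ratio of group means was 0.13 for H2B and 0.31 for H4. The ratios were lower for linker histone H1 (0.21), H2A (0.15) and H3 (0.10). The order differs by measure: the median log2 fold change of the tested members was 0.58 for H3, 0.40 for H2B, 0.35 for H4, and 0.31 for both H1 and H2A. HIST1H3H held most of the H3 sum. Between the number 3 libraries the log2 ratio was -0.01 for summed H2A and -0.003 for summed H3. No test was made between classes.

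**Figure D2:**
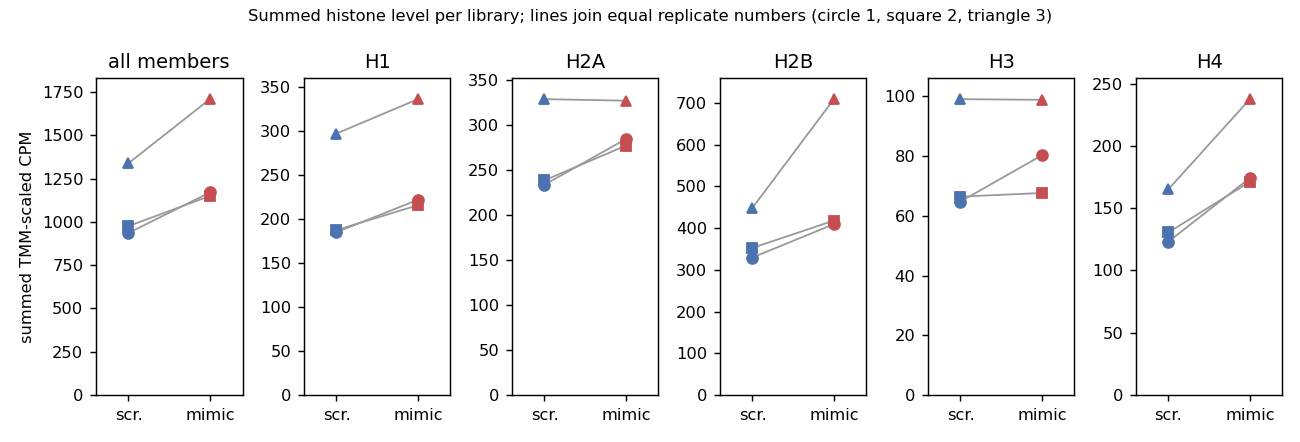
Summed TMM-scaled CPM of all 61 members and of each class in each library, with grey lines joining equal replicate numbers. Each line for H1, H2B and H4 runs upward, and the number 3 libraries (triangles) are the highest of their own group in every panel.

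A few genes carried most of the signal. HIST1H1C, HIST1H2BK and HIST1H2AC held 44.0% of the summed scramble level, and the top 10 members held 74.9%. Per kilobase of the longest annotated transcript, HIST1H2BK (396 CPM per kb) and HIST1H1C (340 CPM per kb) stood above HIST1H2AC (64.4 CPM per kb) in scramble libraries, but both are annotated with their coding sequence alone, so their length is a lower bound. Members whose annotation runs at least 100 bases past the stem-loop (20 genes) had a median level of 18.5 CPM, and members annotated with the coding sequence alone (20 genes) one of 0.918 CPM. The levels thus differed with what the annotation holds, and levels of genes are not ranked further.

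Among linker histone genes 1 stood out by level. HIST1H1C, which encodes linker histone H1.2, was the most abundant of all members, at 178, 183 and 294 CPM in scramble and 211, 211 and 330 CPM with the mimic. Its groups overlapped, and its log2 fold change of 0.22 ± 0.24 (SE) did not pass (edgeR adjusted p = 0.77, and 0.11 with the block). All 6 tested H1 members had log2 fold changes above 0 and none passed in either fit. Mean CPM was nevertheless lower with the mimic for HIST1H1B (1.11 in scramble, 0.85 with the mimic) and HIST1H1D (0.45 and 0.42). Both were at 0 in miR92a 1, as was HIST1H1T. HIST1H1E, encoding H1.4, was low, at 1.65 ± 0.86 CPM in scramble and 3.55 ± 2.85 CPM with the mimic. Its mimic libraries were at 6.80, 1.45 and 2.41 CPM, and the highest, miR92a 1, held only 5 counts. The pseudogene HIST1H1PS1 had a log2 fold change of 0.00 ± 0.52.

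Among H2A genes 1 of 12 tested passed. HIST1H2AG, which encodes the core histone H2A, was at 46.7, 45.2 and 46.3 CPM in scramble and at 68.0, 72.7 and 62.0 CPM with the mimic. All mimic libraries lay above all scramble libraries, and its scramble libraries were nearly equal. The log2 fold change was 0.55 ± 0.10 (edgeR adjusted p = 0.045, and 0.0013 with the block). Without miR92a 1, which gave 50 of its counts, the value was again 0.55, with an adjusted p of 0.12. The call was held without miR92a 3 (adjusted p = 0.042) and lost when any other single library was left out, with adjusted p up to 0.24.

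The most abundant H2A gene gave no call. HIST1H2AC was at 94.5, 97.4 and 130 CPM in scramble and at 106, 108 and 111 CPM with the mimic, a log2 fold change of 0.02 ± 0.13 that was below 0 with the block. HIST2H2AA4 was at 32.8, 29.3 and 45.5 CPM against 32.7, 42.2 and 50.3 CPM (0.29 ± 0.20). Its copy HIST2H2AA3 has the same 393 coding bases, and its estimated counts were 23, 219 and 500 in scramble and 10, 0 and 697 with the mimic. Values of 1 copy alone are uncertain, since reads of identical stretches can be given to either. Summed, the copies had a log2 fold change of 0.32 ± 0.31 (adjusted p = 0.74). HIST3H2A, the most abundant HIST3 member, was at 23.1, 23.3 and 30.2 CPM against 21.8, 21.2 and 25.2 CPM, with a log2 fold change of -0.15 ± 0.16.

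H2B genes gave 4 calls among 15 tested with the block, beside 3 among 8 for H4, a smaller class. Over all genes tested, 4.57% were called higher with the block. HIST1H2BK was at 125, 133 and 194 CPM in scramble and 148, 163 and 353 CPM with the mimic. Each mimic library was above the scramble library of its number, but scramble 3 was above miR92a 1 and 2. Its log2 fold change was 0.51 ± 0.10 with the block (edgeR adjusted p = 0.0027) and 0.60 ± 0.32 without it (adjusted p = 0.47). Without the number 3 libraries the blocked value fell to 0.28, with an adjusted p of 0.0074.

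HIST1H2BJ had the smallest p of the members in the blocked fit. It was at 21.4, 23.5 and 36.8 CPM in scramble and 28.6, 35.4 and 86.6 CPM with the mimic, so that miR92a 3 lay far above the rest. The log2 ratios within numbers 1, 2 and 3 were 0.42, 0.59 and 1.24. The log2 fold change was 0.85 ± 0.14 with the block (adjusted p = 0.00032) and 1.00 ± 0.38 without it (adjusted p = 0.29). Without the number 3 libraries the blocked value was 0.55 (adjusted p = 0.019).

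The other H2B calls had larger adjusted p. HIST1H2BG was at 14.5, 15.1 and 14.8 CPM in scramble and 17.7, 19.7 and 28.9 CPM with the mimic, without overlap. Its blocked log2 fold change was 0.63 ± 0.16 (adjusted p = 0.011), and 0.37 without the number 3 libraries, where it did not pass (adjusted p = 0.35). HIST1H2BD was at 29.1, 32.8 and 34.5 CPM in scramble and 39.5, 38.6 and 47.8 CPM with the mimic, also without overlap. Its blocked value of 0.37 ± 0.12 lay at the threshold (adjusted p = 0.049) and was lost when any 1 pair of libraries was left out (adjusted p of 0.10, 0.16 and 0.31). HIST1H2BD shares its locus with the antisense gene AL353759.1, and the strand of the libraries is not given in the sources used here, so their reads cannot be told apart. HIST2H2BE (0.08 ± 0.12) and HIST1H2BN (0.14 ± 0.12), of similar level, did not pass in either fit.

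H3 genes gave no call among 7 tested. HIST1H3H, the most abundant, was at 51.2, 52.9 and 85.3 CPM in scramble and 62.6, 50.7 and 74.8 CPM with the mimic, a log2 fold change of -0.01 ± 0.23. HIST1H3B was at 3.27 ± 0.47 CPM in scramble and 6.29 ± 3.18 CPM with the mimic (0.69 ± 0.37, edgeR adjusted p = 0.49). Its mimic libraries were at 9.52, 3.17 and 6.17 CPM, and the highest, miR92a 1, held only 7 counts. HIST2H3A and HIST2H3C, copies with the same 411 coding bases, had equal estimated counts in every library and are 1 measurement. Summed, they had a log2 fold change of 0.47 ± 0.23 (adjusted p = 0.44).

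H4 genes gave 3 calls among 8 tested with the block. HIST1H4I was at 60.4, 63.6 and 89.2 CPM in scramble and 87.1, 83.5 and 122 CPM with the mimic. Scramble 3 lay above miR92a 1 and 2, and the log2 ratios within equal numbers were even, at 0.53, 0.39 and 0.45. The log2 fold change was 0.44 ± 0.09 with the block (edgeR adjusted p = 0.0027) and 0.48 ± 0.19 without it (adjusted p = 0.33). It passed with the block when any 1 pair was left out. HIST1H4H, the next H4 gene of the cluster by level, was at 24.7, 24.2 and 30.1 CPM against 31.3, 29.4 and 36.8 CPM (0.32 ± 0.15, adjusted p = 0.41, and 0.15 with the block).

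HIST2H4A and HIST2H4B encode H4 from copies with the same 312 coding bases. HIST2H4B was at 17.9, 21.2 and 22.3 CPM in scramble and 35.4, 32.0 and 31.2 CPM with the mimic, without overlap (0.65 ± 0.14, edgeR adjusted p = 0.063, and 0.0049 with the block). HIST2H4A was at 7.81, 8.22 and 7.53 CPM in scramble and 8.16, 11.1 and 26.7 CPM with the mimic, where miR92a 1 held 6 counts. Its blocked value of 1.02 ± 0.23 (adjusted p = 0.0064) fell to 0.36 without the number 3 libraries (adjusted p = 0.58). Reads of the copies can be given to either, so their sum is given too.

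The summed H4 copies were at 25.7, 29.4 and 29.9 CPM in scramble and 43.5, 43.1 and 57.8 CPM with the mimic. Every mimic library was above every scramble library. The log2 fold change was 0.80 ± 0.15 (edgeR adjusted p = 0.043), and 0.76 ± 0.12 with the block (adjusted p = 0.00028). The annotated HIST2H4A and HIST2H4B genes overlap HIST2H3C and HIST2H3A on the opposite strand (2.72 to 6.09 CPM), and reads of overlapping genes cannot be told apart without strand.

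**Figure D3:**
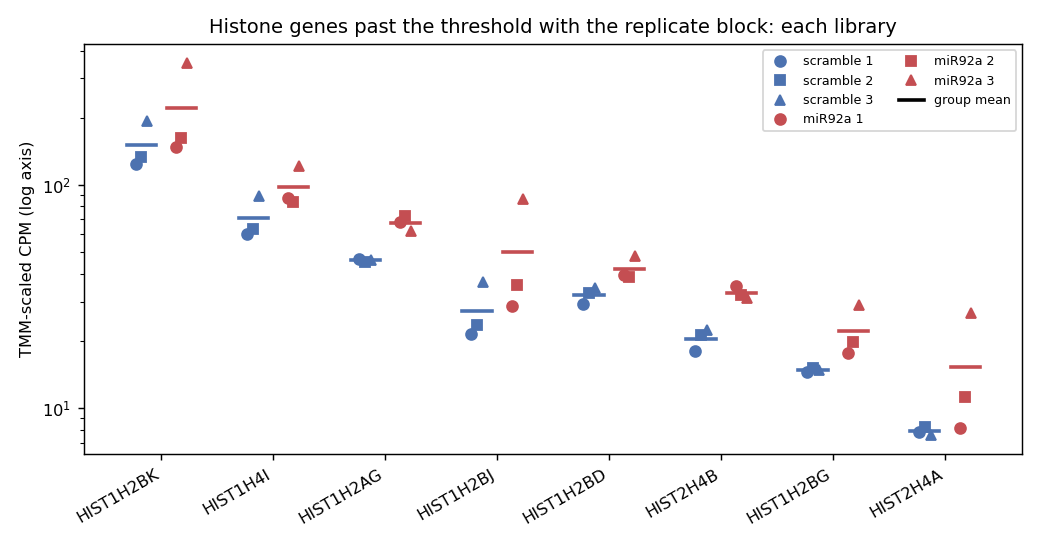
TMM-scaled CPM (log axis) of the 8 histone genes past the threshold with the replicate block, for each library, with group means as bars. Mimic points of HIST1H2AG, HIST1H2BD, HIST2H4B and HIST1H2BG lie above all scramble points, and miR92a 3 (red triangles) is the highest point of HIST1H2BK, HIST1H4I, HIST1H2BJ, HIST1H2BD, HIST1H2BG and HIST2H4A.

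The hairpins printed above can be set beside these values. HIST1H4I, HIST2H4A and HIST2H4B, the 3 H4 genes called with the block, are the 3 members with the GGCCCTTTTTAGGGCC form. The 4 other H4 genes with a hairpin, HIST1H4B, HIST1H4E, HIST1H4H and HIST1H4J, have the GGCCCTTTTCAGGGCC form, of which HIST1H4B was too low to test and the other 3 were not called. HIST1H4E and HIST1H4J had means of 6.46 and 6.11 CPM, and no tested member with a mean under 10 CPM was called with the block. HIST1H4H, at 29.4 CPM on average, had log2 ratios of 0.34, 0.28 and 0.29 within equal numbers. That mean was above those of the called HIST2H4B (26.7 CPM) and HIST2H4A (11.6 CPM). For HIST1H4E and HIST1H4J, hairpin form and level cannot be told apart. The part of hairpin form in these calls was not tested. The grouping by hairpin form was noticed after the values were seen and is a description of 6 tested genes, of which 2 are copies of each other.

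Position along chromosome 6 was a further feature not used to choose the members. HIST1H2BJ, HIST1H2AG, HIST1H4I, HIST1H2BK and HIST1H2AH follow one another within 21.6 kb (chr6:27125897-27147515), and 4 of these 5 passed with the block. HIST1H2AH had under 1 CPM on average and did not pass (0.62 ± 0.63 with the block). Over the other 32 HIST1 members tested, 2 passed with the block. The 4 that passed in the stretch had means of 38.7 to 186 CPM. No tested member with a mean under 10 CPM passed with the block, and the other 32 include such members, so these counts are not matched for level. Over all genes tested, 4.57% were called higher with the block. The median blocked log2 fold change was 0.55 in the stretch and 0.28 in the others. The 6 tested genes within 500 kb that are not histone genes, among them ZNF322, PRSS16 and ZNF184, gave no call in either fit, with log2 fold changes from -0.36 to 0.03. The stretch was delimited after the values were seen, so no test is given.

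**Figure D4:**
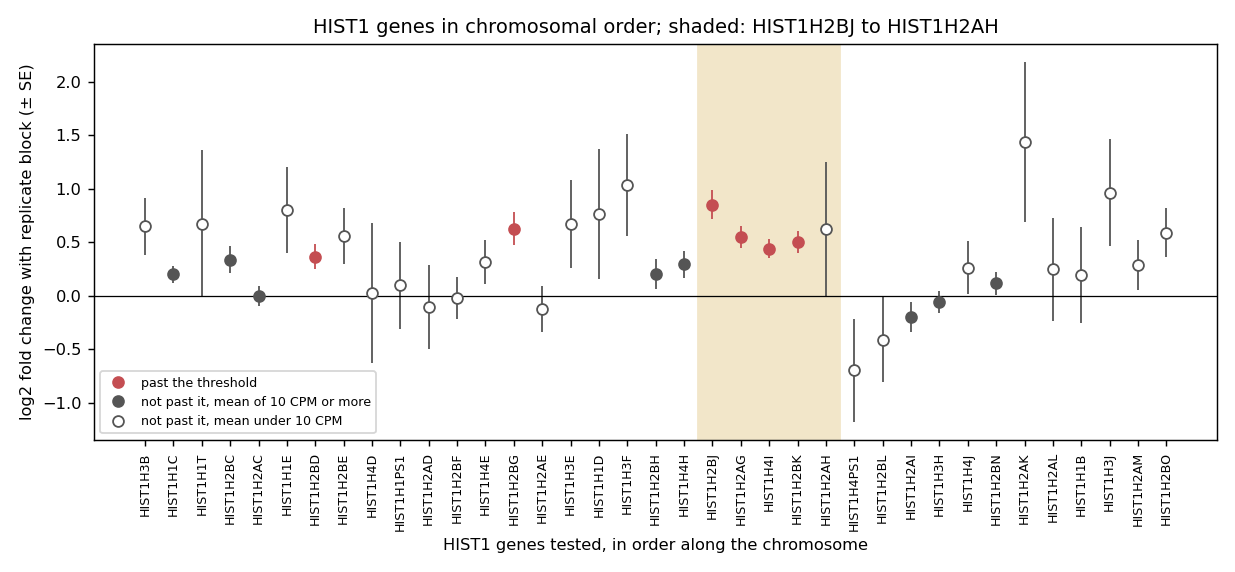
Log2 fold change with the replicate block (bars, 1 standard error) of the 37 tested HIST1 genes in their order along the chromosome. The shaded genes from HIST1H2BJ to HIST1H2AH hold 4 of the 6 genes past the threshold (red), and the genes to their right lie on both sides of 0.

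H2A and H2B genes often lie head to head with a shared promoter region. HIST1H2BJ and HIST1H2AG start 291 bases apart and both passed with the block. HIST1H2BG passed while HIST1H2AE, 282 bases away, had a blocked log2 fold change of -0.12 ± 0.22. HIST1H2BC and HIST1H2AC, 218 bases apart, had 0.34 ± 0.13 and -0.00 ± 0.10, and neither passed. Calls of head-to-head genes thus agreed in some pairs and differed in others. Where they differed, the gene not called was low: HIST1H2AE had a mean of 6.72 CPM, and HIST1H2AH, beside HIST1H2BK, one of 0.85 CPM. No tested member with a mean under 10 CPM was called with the block, so such differences are not matched for level.

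Promoters of these genes are printed for 3 members of that stretch, of which the first spans most of the region between HIST1H2BJ and HIST1H2AG, and for HIST1H2BG. Capitals mark 4 short motifs, found on either strand, where neighbouring matches can overlap: TATAAA (the TATA box), CCAAT, the octamer ATTTGCAT that the factor OCT1 recognises, and GTCCG. The sequences end at the base before the RefSeq start, build GRCh38.p14.
HIST1H2AG: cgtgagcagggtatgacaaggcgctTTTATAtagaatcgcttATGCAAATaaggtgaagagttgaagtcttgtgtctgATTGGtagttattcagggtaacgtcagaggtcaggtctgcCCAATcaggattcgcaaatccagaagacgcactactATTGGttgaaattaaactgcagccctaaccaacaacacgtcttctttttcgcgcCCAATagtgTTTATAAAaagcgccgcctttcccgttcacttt
HIST1H4I: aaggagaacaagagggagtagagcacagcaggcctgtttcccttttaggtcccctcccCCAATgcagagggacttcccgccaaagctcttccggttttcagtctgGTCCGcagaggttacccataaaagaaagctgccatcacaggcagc
HIST1H2BK: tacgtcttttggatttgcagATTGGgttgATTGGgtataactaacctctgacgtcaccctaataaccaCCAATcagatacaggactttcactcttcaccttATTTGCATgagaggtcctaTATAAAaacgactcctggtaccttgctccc
HIST1H2BG: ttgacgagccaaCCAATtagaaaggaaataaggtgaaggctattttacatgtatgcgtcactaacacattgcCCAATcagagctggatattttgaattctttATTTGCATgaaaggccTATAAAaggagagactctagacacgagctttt
They lie at chr6:27132793-27133042, chr6:27139132-27139281, chr6:27146856-27147005 (minus strand) and chr6:26216689-26216838 (minus strand). The last 3 are the 150 bases nearest to the start. In the 250 bases before the start, 33 of 50 matched members (66.0%) held TATAAA, against 10.7% of 35116 RefSeq promoters. CCAAT was held by 43 of 50 (86.0%, against 32.0%), among them 1 of 8 H4 genes, HIST1H4I. The octamer occurred in 10 of 14 H2B and 9 of 14 H2A members and in no H1, H3 or H4 member, against 1.63% of all promoters. GTCCG was held by all 8 H4 members, against 24.2% of all promoters. Motifs thus went with the histone class, and members that passed and members that did not pass shared them.

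The genes that act on histone mRNA were described from lists written for this tissue. For this and the lists below, the shares called over all genes tested were 0.433% higher and 0.976% lower without the block. With the block they were 4.57% higher and 6.7% lower. Of 17 genes of histone transcription and 3′ end processing, all tested, none passed without the block and 1 rose with it, with a median log2 fold change of 0.09. CPSF3, the endonuclease that cuts histone pre-mRNA behind the stem-loop, was at 136, 135 and 148 CPM in scramble and 185, 182 and 212 CPM with the mimic, without overlap (0.47 ± 0.09, edgeR adjusted p = 0.058, and 0.00062 with the block). SLBP, the stem-loop binding protein, was at 141, 135 and 143 CPM against 139, 151 and 169 CPM and did not pass (0.15 ± 0.10, adjusted p = 0.57). NPAT, the coactivator of histone gene transcription, did not pass either (-0.10 ± 0.12, adjusted p = 0.80).

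Of 10 genes of histone mRNA decay, none passed without the block, and with it 1 rose and 3 fell, with a median of -0.01. LSM4, a subunit of the ring that binds the 3′ end of histone mRNA, rose with the block (0.37 ± 0.09, adjusted p = 0.0076). ERI1, an exonuclease that trims past the stem-loop, fell by 0.33 (SE 0.11, adjusted p = 0.049), as did the uridylyl transferases ZCCHC11 (by 0.30, adjusted p = 0.028) and ZCCHC6 (by 0.39, adjusted p = 0.034), all with the block. Of 22 histone chaperones, none passed without the block and 5 rose with it, none falling, with a median of 0.13. CHAF1A, the large subunit of the chromatin assembly factor that deposits new H3 and H4, was at 118, 116 and 136 CPM against 163, 162 and 199 CPM (0.51 ± 0.11, adjusted p = 0.080, and 0.00034 with the block). HJURP, the chaperone of CENPA, and DAXX, a chaperone of H3.3, had blocked values of 0.50 ± 0.09 and 0.36 ± 0.09.

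Many replication-independent histones have polyadenylated mRNAs and can be made outside S phase. Of 8 tested, 2 rose without the block, and with it 5 rose and 1 fell, with a median of 0.30. H3F3A, which encodes the variant H3.3, was at 544, 525 and 602 CPM in scramble and 827, 801 and 807 CPM with the mimic (0.54 ± 0.08, edgeR adjusted p = 0.022). H1FX, a linker histone variant, was at 110, 122 and 80.4 CPM against 189, 186 and 175 CPM (0.81 ± 0.15, adjusted p = 0.042). In both, all mimic libraries lay above all scramble libraries. H2AFV, an H2A.Z gene, fell by 0.34 with the block (adjusted p = 0.0073).

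S-phase genes were described too, since histone supply goes with DNA synthesis. Of 24 genes of S-phase entry and DNA synthesis none passed without the block, 11 had an unadjusted p under 0.05, and 10 rose with the block, none falling. Their median was 0.27, with 22 above 0. Over all genes tested, 6.0% were higher and 7.51% lower at an unadjusted p under 0.05, and 4.57% were called higher with the block. E2F2, an activator of S-phase genes, was at 21.5, 22.1 and 36.0 CPM in scramble and 53.1, 42.9 and 72.7 CPM with the mimic (1.10 ± 0.26, edgeR adjusted p = 0.097, and 3.5e-06 with the block). RRM2, the small subunit of ribonucleotide reductase, had a blocked value of 0.55 ± 0.09, and CCNA2, cyclin A2, one of 0.43 ± 0.08. No library gives the share of cells in S phase, and fewer or more S-phase cells and a change of histone RNA per cell cannot be told apart in these bulk samples. Among the erythroid markers none passed without the block, and TFRC, the transferrin receptor, and HBZ fell with it, by 0.68 and 0.41. The part of such genes in the histone values was not tested.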

How the data were processed

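The values are expected counts, that is whole-number estimates for each symbol, produced by the authors with kallisto from paired-end reads at an average coverage of 62 M, per the labels' protocols. GRCh38 is named in the submitters' processing notes. The kallisto version, annotation, strand and RNA selection are not given in the sources used here. Groups and numbers came from the sample labels, and all per-sample columns were used.

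edgeR 4.0.16 (R 4.3.3) was used with filterByExpr, TMM scaling and a quasi-likelihood F-test with group as the only term, adjusted by Benjamini-Hochberg over 14543 genes (threshold 0.05). Alternatives were DESeq2 1.42.0, limma-voom (limma 3.58.1), other scalings and filters, the replicate block, and libraries left out. The block with a pair left out and the sum of HIST2 copies were added after the data were seen. Code was tested on simulated data. The members, lists and tests were chosen with earlier results of these data known.

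Members named are those past the threshold in either fit, the 3 most abundant of each class and the most abundant of each cluster. From other lists up to 4 genes past the threshold without the block (or up to 2 abundant ones) and up to 3 past it only with the block were eligible. Other names were chosen after values were seen.

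Deviations of same-numbered libraries from group means correlated at 0.15, 0.16 and 0.42 over all tested genes, so by the rule used (each over 0.1) the numbers pair the libraries. Scramble 1 correlated with miR92a 2 at 0.52 over genes with a mean of 1000 counts or more, against 0.37 with miR92a 1, so numbers 1 and 2 are not set apart. Gene positions and hairpins are from GENCODE v29 (GRCh38), and promoters and the miRNA from RefSeq (GRCh38.p14). All 61 members matched the first and 50 the promoter table. A standard error is the size of the log2 fold change over the square root of F. Markers were erythroid (8), myeloblast and granulocyte (7, of which 4 were tested and 1, AZU1, fell with the block) and lymphoid (5, of which 3 were tested and none was called). None of the 16 non-polyadenylated RNAs listed as a check of RNA selection had a row, so they are not analysed here.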

Additional observations from a re-analysis of the deposited data

How the results depend on the processing

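Without the block, the number of members past the threshold was 1 under median-of-ratios scaling, no filter and a mean of at least 1 CPM, 2 with DESeq2, 2 with limma-voom (HIST1H2AG and HIST2H4B in both), 0 with total counts alone and 2 with the HIST2 copies summed. It ranged from 0 to 1 when 1 library was left out. The 1 call without scramble 3 was HIST2H2BD, which was at 0 in the scramble libraries left. With the replicate block it was 8, 7 with the copies summed, and 7 without any 1 pair. Of these, 7 were shared with the full blocked fit without the number 1 pair, 6 without the number 2 pair and 5 without the number 3 pair, where HIST1H1C passed and HIST2H2AA3 was the 1 member called lower. HIST2H2AA3 was called higher without the number 2 pair. HIST1H2AG was lost with total counts alone and with the block without the number 2 pair.

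The median log2 fold change of 0.39 became 0.30 with the block (0.34, 0.46 and 0.30 without the number 1, 2 and 3 pair, and 0.29 with copies summed). Without the block it was 0.33 with copies summed, and ranged from 0.24 to 0.56 when 1 library was left out. The log2 ratio of summed levels ranged from 0.10 to 0.49, and by class, in ranges added after the data were seen, from -0.029 to 0.47 (H1), 0.063 to 0.33 (H2A), 0.13 to 0.59 (H2B), -0.054 to 0.33 (H3) and 0.31 to 0.62 (H4). Values near 0 changed sign. When 1 library was left out, HIST1H1C ranged from -0.050 to 0.50, HIST1H1PS1 from -0.20 to 0.18, HIST1H2AC from -0.066 to 0.18 and HIST1H3H from -0.22 to 0.27. HIST1H1PS1 was at -0.0040 under the 1 CPM filter and at -0.067 with the block without number 1. HIST1H2AC was at -0.00048 with the block, -0.00043 with copies summed too, and -0.034 and -0.092 with the block without number 1 and 2. HIST1H3H was at 0.0088 with limma-voom, 0.0070 with total counts alone and 0.013 with the block without number 3. The cause was not tested. Where a left-out library leaves 2 in its group, the spread is estimated from 5 libraries. The 704448 counts of miR92a 1 limit what can be seen for members under 10 CPM.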
